A study of Mus musculus with 6 samples.

Results

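The 35 genes described here encode the enzymes and regulators of cholesterol and fatty acid synthesis, and were taken by symbol from a list of mevalonate and sterol enzymes, regulators of the SREBP transcription factors, and genes of fatty acid synthesis, elongation and desaturation. All 35 were found among the 20494 gene rows of the authors' deposited table, 34 under their current symbol and Msmo1 under its older symbol Sc4mol. RNA came from whole lungs of untreated male C57BL/6 mice aged 4 months, in 3 libraries from mice lacking lincRNA-Cox2, a long noncoding RNA transcribed next to the cyclooxygenase gene Ptgs2, and 3 libraries from wild type mice. Apart from genotype, the labels give both groups the same strain, sex, age, tissue and lack of treatment. For each gene the table holds a mean normalized count per genotype, 1 comparison of knockout over wild type, and no value of a single library. The spread between libraries therefore enters through the authors' standard errors.

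Cholesterol is made from acetyl-CoA through the mevalonate pathway, which ends in farnesyl pyrophosphate, and through a series of sterol steps that begins with squalene. Fatty acids are made by Acaca and Fasn from the same precursor, which Acly supplies. They are then lengthened by the Elovl enzymes and desaturated by the Scd and Fads enzymes. The SREBP proteins, encoded by Srebf1 and Srebf2, are membrane-bound transcription factors that are released when sterols are low. Scap escorts them to the Golgi, where they are cut, and the Insig proteins hold them back. In lung, alveolar type 2 cells make fatty acids and take up or make cholesterol for surfactant, the lipid film that lowers surface tension.

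The group means of the targeted gene followed the labels. LincRNA-Cox2 had group means of 311 normalized counts in wild type and 0.666 in knockout by the authors' deposited table (adjusted p = 4.05e-91, DESeq2). Ptgs2 was 9.83-fold lower in knockout there. The lung markers Sftpc (alveolar type 2 cells), Scgb1a1 (club cells) and Ager (alveolar type 1 cells) were abundant, at 82187, 50719 and 40897 normalized counts in wild type in the authors' deposited table, and differed by at most 1.60% between genotypes. Summed over all genes, the normalized means came to 3.71e+07 in wild type and 3.68e+07 in knockout. These sums are scaled and do not give the depth of a library.

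None of the 35 synthesis genes was called different between knockout and wild type lungs. By the DESeq2 comparison in the authors' deposited table, 0 of 35 had an adjusted p under 0.05, where 1.09% of all 16902 genes with an adjusted p did. At an unadjusted p under 0.05 there were 2 of 35, against 8.47% of all tested genes and 9.52% of the 11805 with a mean at least as high as the lowest of the 35. The first was Pmvk, lower in knockout as were 4.04% of all tested genes at this p, and the other Elovl1, higher as were 4.43%. The group mean was higher in knockout for 23 genes and lower for 12, while 49.4% of all tested genes, and 48.5% of those at or above the lowest mean of the 35, were higher. The median log2 ratio of the group means was 0.050 over the 35 genes, a difference of 3.50%, and -0.0013 over all tested genes. All 35 genes passed the authors' filter on low values, since the lowest, Tm7sf2, had a mean of 337 normalized counts over all libraries against 12.8 for the lowest gene with an adjusted p. The list and its role groups were chosen with earlier results of these data known, so these counts and medians are a description.

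A 95% interval for the ratio of the group means, knockout over wild type, was derived for each gene from the authors' Wald statistic. It covers 1 gene at a time and is not adjusted for the 35 genes. By its derivation it excludes a ratio of 1 exactly where the unadjusted p is under 0.05. Whether it includes 1 therefore adds nothing to the p-values. The interval included a ratio of 1 for 33 of 35 genes, and lay wholly within 25% of the wild type level, in either direction, for 34 of 35 and within 20% for 27. Elovl6 was the exception to the first bound, with an upper limit 36.2% above wild type. At the authors' threshold a synthesis gene with the median error needed a 1.20-fold difference to be called, and the need ranged from 1.12-fold for Fads1, which encodes the delta-5 desaturase, to 1.40-fold for Elovl6. A smaller observed difference in the same gene could not be called with 3 libraries per genotype. In whole lung, fewer cells of a type and less RNA per cell cannot be told apart.

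**Figure D1:**
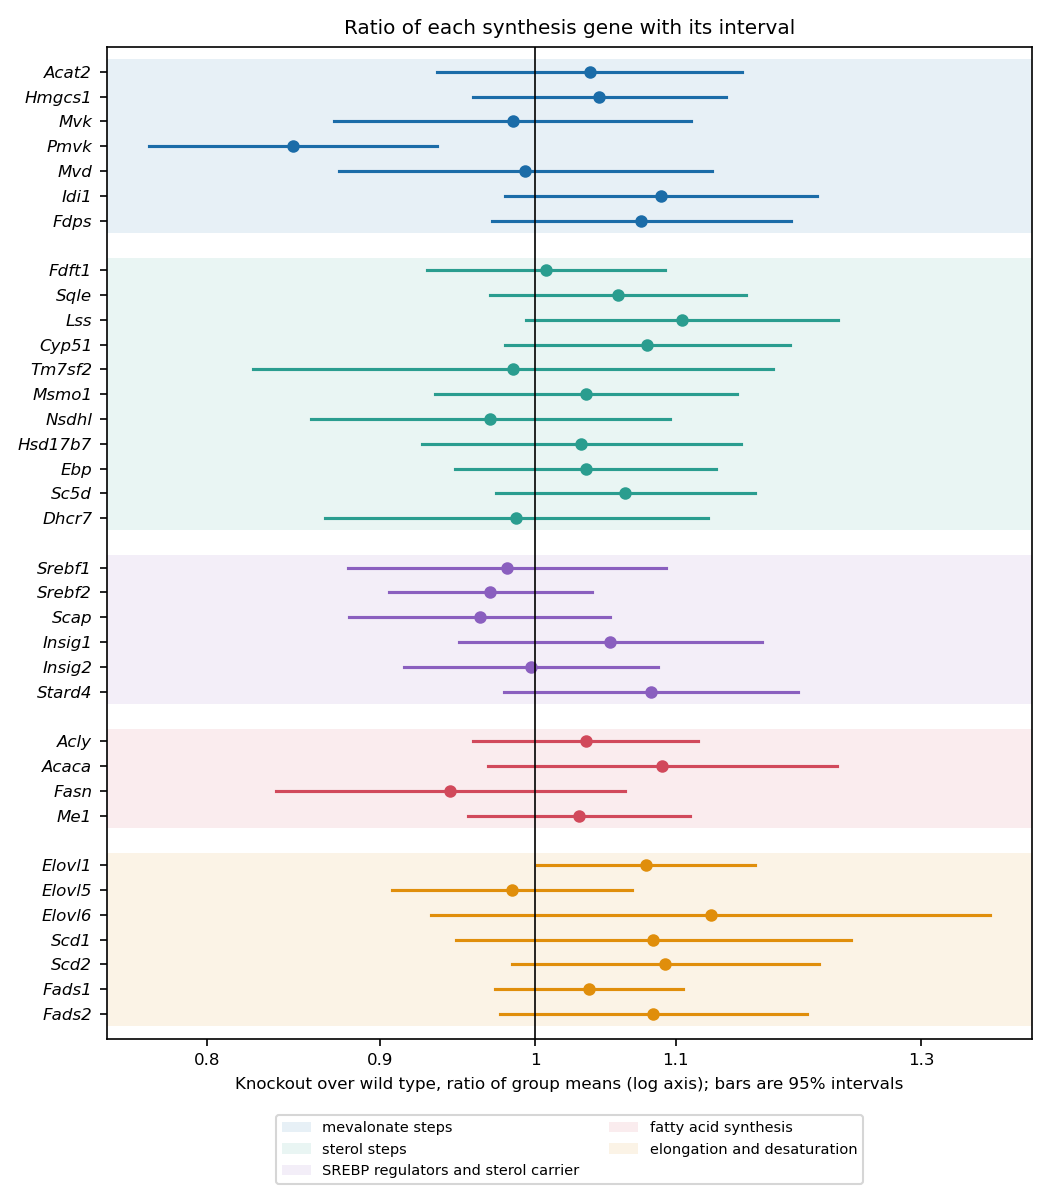
Knockout over wild type ratio (log axis) of the 35 synthesis genes in 5 role groups, drawn from the group means. Points are ratios and bars are 95% intervals derived from the authors' statistic; 33 bars cross the line at 1, the bar of Pmvk lies to its left, and that of Elovl1 lies just to its right.

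Promoter sequence was not used to choose the genes. RefSeq promoter windows (GRCm38.p6, the build also called mm10) were found for 28 of the 35 genes, in 38 windows. Each runs from 250 bases before to 50 bases after an annotated start site. That site is not always the first base of the gene, and some windows lie inside the gene. No window was used for Scd1, Scd2, Fads1, Fdps, Fdft1, Stard4 and Sqle. Windows were searched on both strands for 4 motifs, the sterol regulatory element core TCACNCCAC, the NF-Y box CCAAT, the Sp1 box GGGCGG and the E-box CACGTG. The NF-Y box stood in 24 of 38 windows (63.2%), against 37.0% of the 14784 windows of genes with an adjusted p and 37.4% of all 32851 windows. The Sp1 box stood in 28 (73.7%), against 58.2% and 35.7%. Both boxes occurred together in 18 windows (47.4%), against 21.2% and 12.8%. The E-box was in 7 windows (18.4%) of 6 genes, against 9.26% and 7.15%, and no overlap between matches of different motifs was removed. Windows of the same gene can overlap, as those of Scap do, so a single site can count in more than 1 window. Windows of the synthesis genes had a median GC content of 61.8%, and those of all tested genes one of 60%. The sterol regulatory element core matched in 1 window, that of Hmgcs1, and in 1.24% of all windows. Only exact matches to this pattern were counted, so a window without a match may still hold a variant of the element.

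Of the sterol step genes with a window, 9 of 9 held an NF-Y box and 9 of 9 an Sp1 box. Among the 4 fatty acid synthesis genes 3 held an NF-Y box and 2 an Sp1 box. The Elovl6 and Acaca windows and 1 Pmvk window held none of the 4 motifs. The Acaca window (chr11:84195188-84195487) lies inside the gene, which begins at 84129672, so the bases around the gene's first start were not searched. The following 4 windows are from mevalonate, sterol and regulator genes, with every motif match in capitals and the 5′ end first. Hmgcs1 (chr13:119690101-119690400, plus strand) is shown for the sterol regulatory element core and 4 NF-Y boxes, Insig1 (chr5:28071162-28071461, plus strand) for the E-box beside 3 Sp1 boxes, Lss (chr10:76531355-76531654, plus strand) as the sterol gene with the smallest p, and the upstream window of Pmvk (chr3:89454291-89454590, plus strand) as the gene with the smallest p of all.
Hmgcs1: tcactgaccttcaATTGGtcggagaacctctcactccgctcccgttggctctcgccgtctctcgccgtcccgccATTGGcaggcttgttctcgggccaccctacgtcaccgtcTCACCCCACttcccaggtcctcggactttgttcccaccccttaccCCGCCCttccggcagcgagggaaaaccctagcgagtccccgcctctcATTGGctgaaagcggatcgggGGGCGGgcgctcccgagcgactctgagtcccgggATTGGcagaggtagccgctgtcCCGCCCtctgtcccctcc
Insig1: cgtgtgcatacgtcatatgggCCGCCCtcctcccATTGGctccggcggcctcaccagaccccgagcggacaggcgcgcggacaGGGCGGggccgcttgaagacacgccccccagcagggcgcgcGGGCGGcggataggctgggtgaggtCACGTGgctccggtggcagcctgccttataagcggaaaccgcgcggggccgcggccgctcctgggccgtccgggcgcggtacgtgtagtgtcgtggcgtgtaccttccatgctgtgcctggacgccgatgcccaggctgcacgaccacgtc
Lss: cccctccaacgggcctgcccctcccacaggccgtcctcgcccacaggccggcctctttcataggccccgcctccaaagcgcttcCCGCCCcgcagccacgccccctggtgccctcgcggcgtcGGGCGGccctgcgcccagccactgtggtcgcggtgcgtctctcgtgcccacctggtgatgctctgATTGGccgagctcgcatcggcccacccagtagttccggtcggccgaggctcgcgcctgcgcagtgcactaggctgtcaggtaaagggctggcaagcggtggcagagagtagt
Pmvk: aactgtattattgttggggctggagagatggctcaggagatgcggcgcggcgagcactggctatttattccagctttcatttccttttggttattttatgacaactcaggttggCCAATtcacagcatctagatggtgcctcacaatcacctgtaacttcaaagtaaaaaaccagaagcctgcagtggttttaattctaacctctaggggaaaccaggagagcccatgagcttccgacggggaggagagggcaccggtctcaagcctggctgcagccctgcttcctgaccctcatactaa
In the Hmgcs1 window the core reads TCACCCCAC and begins at position -137, counted from the start site of that window. The upstream NF-Y and Sp1 boxes nearest to the start begin at -45 and -24. The upstream Pmvk window holds 1 NF-Y box, at -136, and no Sp1 box. The second Pmvk window, inside the gene at chr3:89459321-89459620, holds none of the 4 motifs. Bases between the upstream Pmvk window and this one were not searched, so a motif there would have been missed. A match is a description of letters and was not tied to binding in these lungs.

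Among the 7 genes of the mevalonate steps, 4 had a higher and 3 a lower group mean in knockout, with a median difference of 3.75%. Hmgcs1, which condenses acetyl-CoA and acetoacetyl-CoA to HMG-CoA, had means of 6330 normalized counts in wild type and 6611 in knockout in the authors' deposited table (adjusted p = 0.942). Its interval ran from -4.18% to 13.8%. Acat2, the cytosolic thiolase that supplies acetoacetyl-CoA, had means of 1492 and 1548 there (adjusted p = 0.986). Idi1, the isopentenyl isomerase, and Fdps, the farnesyl pyrophosphate synthase, lay furthest above wild type, at 1772 against 1930 and 2374 against 2552 normalized counts in the authors' deposited table. Their differences of 8.92% and 7.47% were smaller than their errors allowed to be called (adjusted p = 0.765 and 0.847). Mvk and Mvd, a kinase and a decarboxylase of mevalonate, were nearly level, at -1.53% and -0.679%, with intervals that reached no further than 12.8% from wild type.

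Pmvk, the phosphomevalonate kinase between Mvk and Mvd, had the smallest p of all the synthesis genes. It lies on chromosome 3 (mm10, chr3:89454541-89469013, plus strand). Its group mean was 1466 normalized counts in wild type and 1243 in knockout in the authors' deposited table, a difference of -15.2% with an interval from -23.1% to -6.50%. The authors' deposited table gives it a shrunken log2 change of -0.20 ± 0.061 (SE), an unadjusted p of 0.000942 and an adjusted p of 0.0689 (DESeq2). It was not called at 0.05, and would be at 0.1, where 1.77% of tested genes are. The enzymes directly before and after it in the pathway, Mvk and Mvd, had intervals of -12.8% to 11.2% and -12.5% to 12.8%. No test of the difference between Pmvk and its neighbours was possible from group means.

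Of the 11 genes of the sterol steps 8 had a higher and 3 a lower group mean in knockout, all between -3.01% and 10.5%, with a median of 3.48%. Each of their 11 intervals included no difference. Fdft1, the squalene synthase that commits farnesyl pyrophosphate to sterols, had means of 2533 and 2551 normalized counts in the authors' deposited table (adjusted p = 0.997). Its annotated exons share 774 bases with Ctsb on the opposite strand, a gene with a mean of 18082 normalized counts over all libraries in the authors' deposited table. The library kit named in the labels does not mark strand, so reads from the shared bases cannot be told apart and the Fdft1 value is uncertain. The same holds for the 77.4% of Fdps exon bases shared with Gm43738, annotated as protein-coding on the same strand, and for smaller shares of other genes, such as 18.6% of Scap, 16.0% of Hmgcs1, 10.7% of Idi1, 8.16% of Lss and 4.22% of Cyp51. No row was found in the authors' deposited table for Gm43738 or for the genes overlapping Scap, Hmgcs1 and Idi1. How far these overlaps affected the counts is therefore unknown. Sqle, the squalene epoxidase, had means of 2720 and 2878 there, a difference of 5.78% with an interval from -3.05% to 15.4%. Lss, which closes the squalene epoxide into lanosterol, had the smallest p of the group, with 1325 and 1463 normalized counts in the authors' deposited table (unadjusted p = 0.0656, adjusted p = 0.650).

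The enzymes that turn lanosterol into cholesterol all had intervals that included no difference. Cyp51, the lanosterol demethylase, had means of 2249 and 2427 normalized counts in the authors' deposited table (adjusted p = 0.781). Msmo1 and Nsdhl, which remove methyl groups from the sterol ring together with Hsd17b7, differed by 3.48% and -3.01%, and Hsd17b7 by 3.19%. Sc5d, a desaturase of the sterol ring, and Ebp, the sterol isomerase, had differences of 6.31% and 3.48%. Tm7sf2, a sterol reductase and the lowest of the 35 genes, was at 340 and 334 normalized counts in the authors' deposited table. Its interval was wide, from -17.5% to 17.5%. Dhcr7, the last reductase of one branch, had means of 932 and 921 there, and an interval from -13.3% to 12.4%.

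Hsd17b7 and Insig2 are on chromosome 1, as is lincRNA-Cox2. Hsd17b7 (chr1:169949535-169969241, minus strand) lies at 19.8 Mb from the start of Ptgs2 and Insig2 (chr1:121304353-121332589, minus strand) at -28.8 Mb, on its other side. Insig2 had the smallest difference of all 35 genes, 2238 against 2231 normalized counts in the authors' deposited table. Without both genes the median log2 ratio of the list was 0.053.

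The 6 regulators and carriers had a median difference of -1.11%, with 2 higher and 4 lower. Srebf2, the factor that acts mainly on cholesterol genes, had means of 9271 and 8992 normalized counts in the authors' deposited table (adjusted p = 0.967), and its interval, from -9.50% to 3.94%, was among the narrowest of the list. Srebf1, whose products act mainly on fatty acid genes, had means of 5741 and 5632 there, with an interval from -12.0% to 9.32%. The table gives 1 row for Srebf1, so its transcripts from separate promoters are not told apart. Scap, the escort protein, was at 3498 and 3368 normalized counts per the authors' deposited table (adjusted p = 0.973). Insig1 and Stard4 are themselves targets of SREBP, and their RNA is commonly read as a sign of its activity. Insig1 had means of 4529 and 4765 normalized counts in the authors' deposited table (adjusted p = 0.946), and Stard4, a sterol carrier, of 1759 and 1904 (adjusted p = 0.780). Their intervals were -5.07% to 16.6% and -2.08% to 19.6%.

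In fatty acid synthesis, 3 of 4 genes had a higher and 1 a lower mean in knockout. Acly, which makes cytosolic acetyl-CoA from citrate, had means of 12530 and 12968 normalized counts in the authors' deposited table (interval -4.12% to 11.7%). Acaca, the acetyl-CoA carboxylase that commits carbon to fatty acids, differed by 9.01% (3629 against 3956, adjusted p = 0.836 in the authors' deposited table). Fasn, the fatty acid synthase (chr11:120805846-120824547, minus strand), was the one below wild type, at 21805 against 20580 normalized counts in the authors' deposited table. Its difference of -5.62% had an interval from -16.2% to 6.27%. Me1, the malic enzyme that supplies NADPH, had means of 3960 and 4080 there (adjusted p = 0.980).

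Elongation and desaturation genes had the largest median difference of the 5 groups, 8.36%, with 6 of 7 higher in knockout, against 49.4% of all tested genes. At an unadjusted p under 0.05 there was 1 of 7, against 8.47% of all tested genes. This was Elovl1, an elongase of very long chain fatty acids (chr4:118428093-118432953, plus strand), with 12720 normalized counts in wild type and 13711 in knockout in the authors' deposited table. Its unadjusted p was 0.0471 and its adjusted p 0.580 there, and its interval ran from 0.0961% to 16.1%. Scd1 and Scd2, the stearoyl-CoA desaturases that make monounsaturated fatty acids, had means of 56904 and 61659 and of 32173 and 35148 normalized counts in the authors' deposited table (adjusted p = 0.909 and 0.735). The 2 genes lie near each other on chromosome 19 (chr19:44394455-44407879, minus strand, and chr19:44293674-44306864, plus strand) and are similar in sequence. How reads that fit both were counted is not given in the sources used here, so their separate values are uncertain.

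Elovl5, which lengthens polyunsaturated fatty acids, was the 1 gene of the group below wild type, at 10825 against 10652 normalized counts in the authors' deposited table, with an interval from -9.31% to 6.77%. Fads1 and Fads2, the delta-5 and delta-6 desaturases of polyunsaturated fatty acids, differed by 3.72% and 8.36%. The Fads1 interval, -2.69% to 10.6%, was narrower than that of Fads2, -2.38% to 20.3%. Elovl6, which lengthens palmitate, had the largest positive difference of the 35 genes, 12.6%, on means of 381 and 429 normalized counts in the authors' deposited table, and the widest interval, from -6.84% to 36.2%. The groups were not tested against each other.

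**Figure D2:**
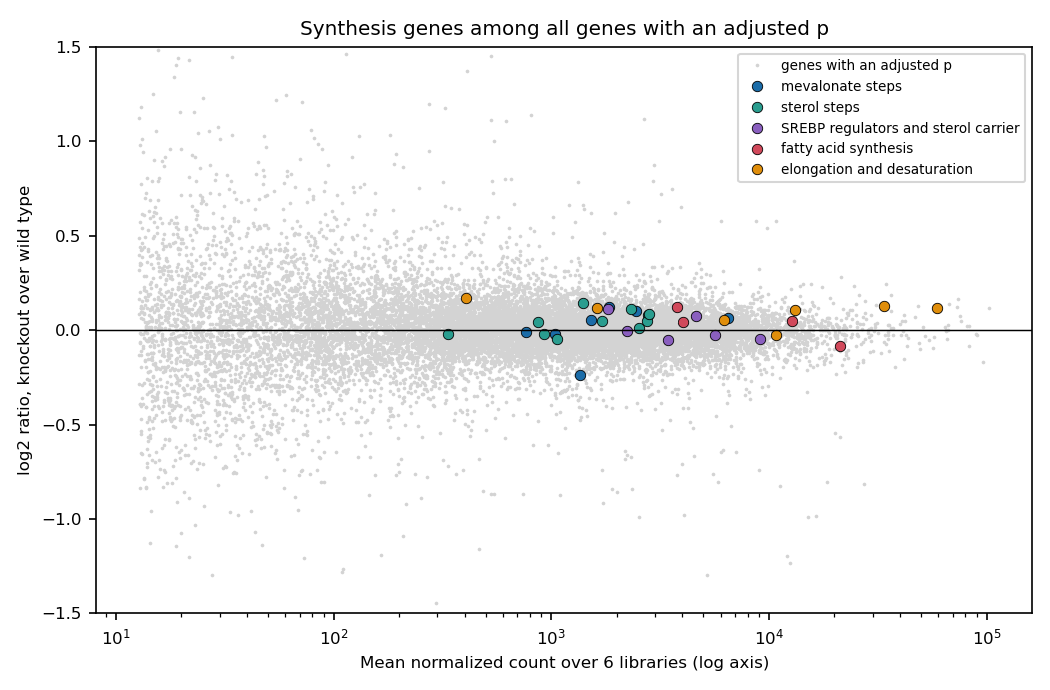
Difference between genotypes as a log2 ratio (knockout over wild type) plotted against the mean normalized count of the 6 libraries on a log axis, with all tested genes in grey (those beyond 1.5 either way not drawn) and the 35 synthesis genes in colour by role group. The synthesis genes lie between -0.24 (Pmvk) and 0.17 (Elovl6), inside the grey band of their level.

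Levels differed far more between the genes than between genotypes. Normalized counts were divided by the length of each gene's annotated exons (GENCODE M21) so that genes could be compared. Per kilobase, Scd1 was the highest in wild type, at 11777, followed by Elovl1 at 6553, Scd2 at 5898, Elovl5 at 3891, Acly at 2718 and Fasn at 2170. The lowest was Elovl6 at 62.1, below Hsd17b7 at 170 and Tm7sf2 at 200.4. The mevalonate steps ranged from 437 (Mvd) to 1818 (Hmgcs1) per kilobase, and the sterol steps from 170 (Hsd17b7) to 1322 (Msmo1). Of the regulators, Srebf2 was highest at 1826 and Stard4 lowest at 338. The gene with the highest value exceeded the lowest 190-fold per kilobase. Among all genes with an adjusted p, ranked by normalized counts, 30 of the 35 lay above the median, and 10 in the top 10%. Together the 35 genes took 0.604% of the normalized counts in wild type and 0.634% in knockout, and Scd1 and Scd2 made up 39.8% of the wild type share.

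**Figure D3:**
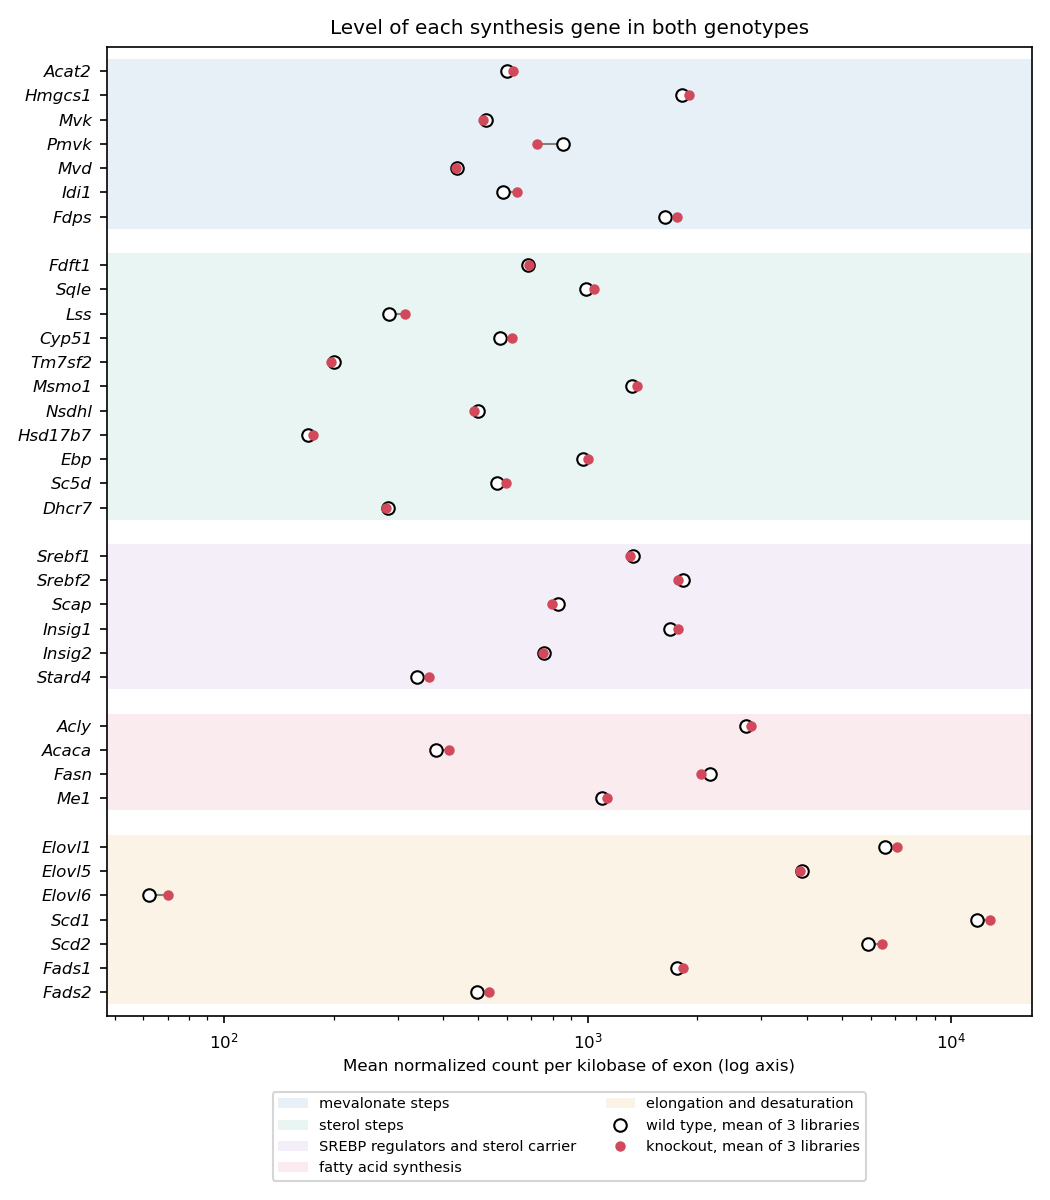
Mean normalized count per kilobase of exon (log axis) for each synthesis gene, with wild type as open circles and knockout as red points, each the authors' mean over 3 libraries. The paired points nearly coincide, the largest gap being that of Pmvk (856 and 726), while genes range from 62.1 (Elovl6) to 11777 (Scd1) in wild type.

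Other genes of the same pathways were read from a list of 43, of which 42 were found and 40 had an adjusted p, Elovl3 being not analysed here. Elovl2, at means of 6.74 and 4.96 normalized counts in the authors' deposited table, was among those without one. Of the 40, 23 were higher and 17 lower in knockout, with a median log2 ratio of 0.022, and 1 was called, Gpam, or 1 of 40 against 1.09% of all tested genes. Gpam, the mitochondrial acyltransferase that starts glycerolipid synthesis, rose by the authors' deposited table, with 4952 normalized counts in wild type and 5808 in knockout (shrunken log2 change 0.21 ± 0.046 SE, adjusted p = 0.00112). The difference was 17.3%, with an interval from 9.61% to 25.5%.

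At an unadjusted p under 0.05 there were 6 of 40 genes of this list, 4 higher and 2 lower in knockout, against 8.47% of all tested genes, 4.43% higher and 4.04% lower. Besides Gpam, Acsl4, which activates arachidonic and related acids, had means of 8513 and 9617 normalized counts in the authors' deposited table (adjusted p = 0.214). Lpcat1, which makes the surfactant lipid dipalmitoylphosphatidylcholine, had means of 8100 and 9080 there (adjusted p = 0.400), and Abca1, the cholesterol exporter, 4614 and 5159 (adjusted p = 0.555). The 2 lower genes were Scarb1, the receptor for high-density lipoprotein, at 5167 and 4577 normalized counts in the authors' deposited table (adjusted p = 0.362), and Mlxipl, the carbohydrate-responsive factor of lipogenesis, at 125 and 90.4 (adjusted p = 0.439).

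Mbtps1 and Mbtps2, the proteases that cut SREBP in the Golgi, differed by -0.869% and -0.619%. Of the 6 genes of the LXR arm, which responds to high sterols, 2 were higher and 4 lower, with 0 called by the authors' DESeq2 comparison and 1, Abca1, at an unadjusted p under 0.05. That p was reached by 8.47% of all tested genes.

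Markers of the cells that use these pathways were read beside them, and their part in the results was not tested. Among all tested genes, 1.09% were called and 8.47% had an unadjusted p under 0.05 (DESeq2). Of 10 alveolar type 2 markers 9 were higher and 1 lower, with 0 called in the authors' deposited table (DESeq2) and 2 at an unadjusted p under 0.05, Lamp3 (10.0%) and Abca3 (-11.1%), both named after their values were seen. The markers' median log2 ratio was 0.051 and their summed level 394073 normalized counts in wild type and 405428 in knockout. All 10 adipocyte markers were lower in knockout, with a median log2 ratio of -0.75, and 0 were called, 1 having an unadjusted p under 0.05 (Cidec, 0.00761 in the authors' deposited table). Their summed level was 6813 normalized counts in wild type and 4863 in knockout. The adipsin gene Cfd was at 2257 and 1198 normalized counts per the authors' deposited table (adjusted p = 0.839), and Lipe, the hormone-sensitive lipase, at 1835 and 1711 (adjusted p = 0.938). Adipoq, the fat hormone adiponectin, chosen after its values were seen, was at 338 and 197 there (adjusted p = 0.921). Of 3 brown adipocyte markers, Ucp1, which defines brown fat, was near 0 at 0.659 and 0.980 normalized counts there. The other markers were not near 0, with Cidea at 135 and 138 and Cox7a1 at 238 and 183 (adjusted p = 0.997 and 0.666, DESeq2). All 5 neutrophil markers rose, with summed levels of 6421 and 10636 normalized counts and adjusted p-values of at most 3.39e-05 in the authors' deposited table.

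**Figure D4:**
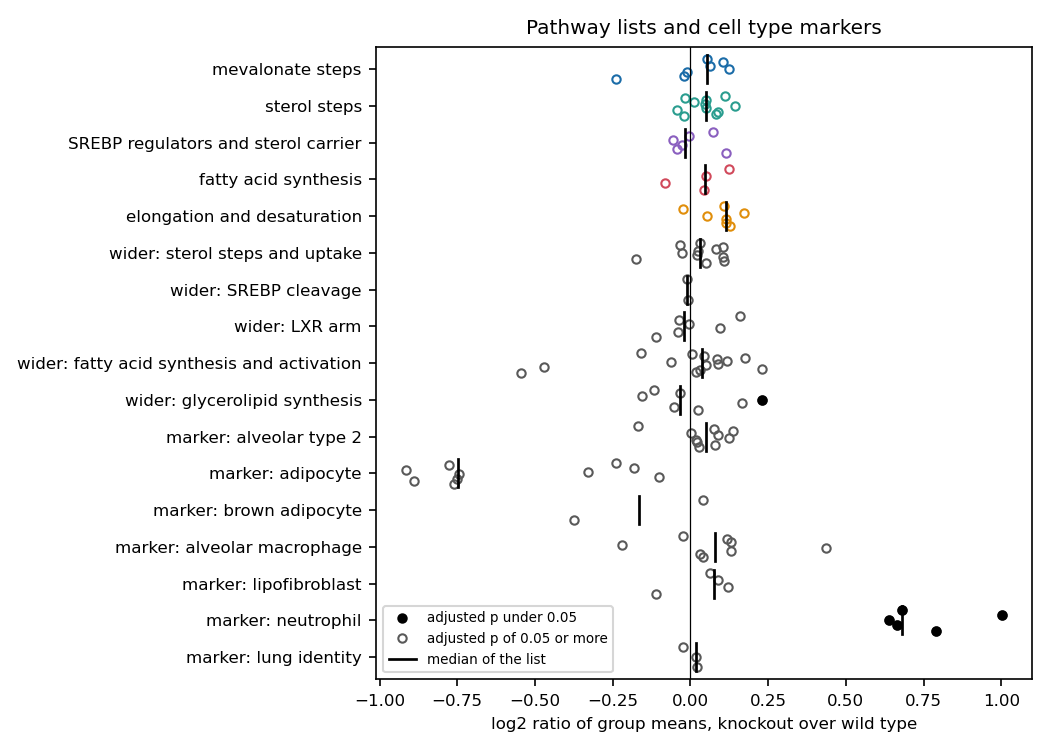
The log2 ratio of group means, knockout over wild type, for each gene with an adjusted p in the 5 role groups, the wider pathway lists and the marker lists; filled points have an adjusted p under 0.05 and bars are list medians. The synthesis genes and alveolar type 2 markers lie near 0, the adipocyte median lies at -0.75 with no filled point, and the 5 neutrophil markers and Gpam are filled.

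The authors' standard errors also give the spread between libraries that their model assigned to each gene. Expressed as a coefficient of variation (SD over mean) beyond counting error, it ranged from 3.78% (Fads1) to 10.8% (Elovl6) over the 35 genes, with a median of 5.94%. The median over tested genes with a mean of at least 300 normalized counts was 6.11%. Scd1 and Fasn, at 8.39% and 7.38%, had more spread than Elovl1 and Acly, at 4.55% and 4.69%, whose means were lower. Other genes of the list had similar or larger spread, such as Dhcr7 at 7.44% and Tm7sf2 at 9.62%. Adipocyte markers were far more variable, with a median of 43.9% and 7 of 10 above 25%, a limit passed by 1.34% of the 15425 tested genes with a mean at least as high as the lowest of these markers (42.3 normalized counts). Thrsp, a lipogenic gene abundant in fat and a member of the wider list, had a value of 43.4%, with means of 365 and 250 normalized counts in the authors' deposited table (adjusted p = 0.929). None of the 35 synthesis genes reached 25%.

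**Figure D5:**
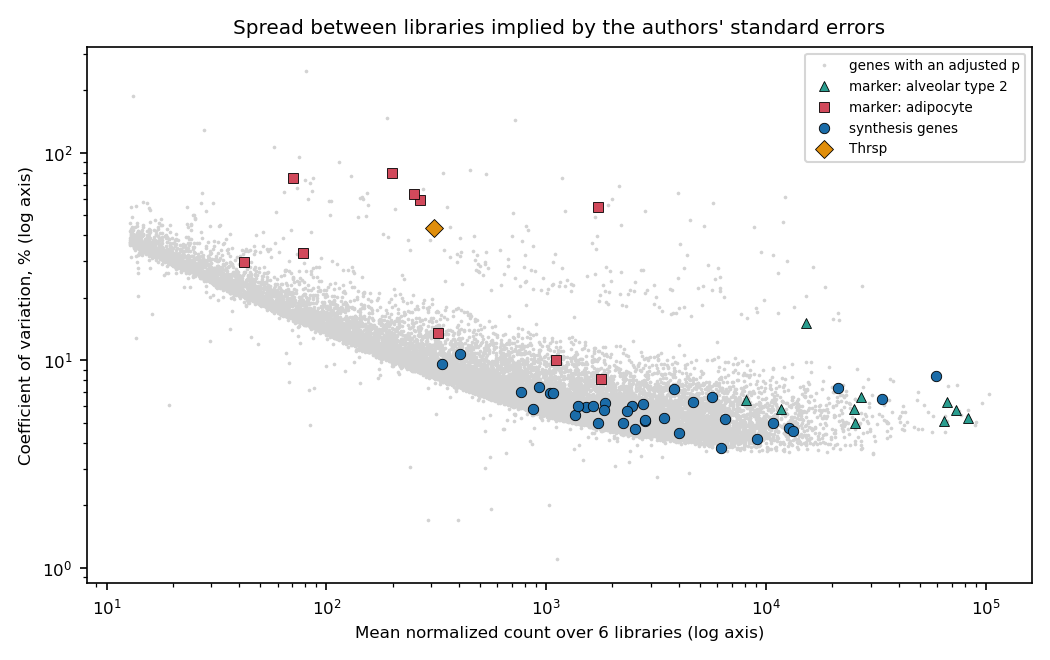
Coefficient of variation between libraries beyond counting error, derived from the authors' standard errors, against the mean normalized count over 6 libraries (both log axes), with all tested genes in grey and, in colour, the synthesis genes, alveolar type 2 and adipocyte markers, and Thrsp. The synthesis genes lie between 3.78% and 10.8% within the grey band, whereas most adipocyte markers and Thrsp lie well above it.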

How the data were processed

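RNA of 6 whole lung libraries, 3 per genotype, was sequenced as 50 bp paired ends from 500 ng of RNA, per the labels' protocols, with a mean RNA integrity number of 9.45. The tools listed in the submitters' processing notes are STAR 2.5.1b, Bowtie2, DESeq2, bedtools and SAMtools, and the build is mm10, with no role or order. How reads were counted is not given in the sources used here. Per the file headers, the authors deposited a signal, the mean normalized count of each genotype (counts divided by a size factor), a log2 fold change shrunken towards 0 with its standard error, a Wald score, and p-values and adjusted p-values. Whether replicates are separate mice is not labelled beyond 1 title per library. The p-values set the difference between genotypes against the spread between these libraries that the authors' model assigned.

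Without library values no model of counts could be fitted. Calls are the authors' adjusted p under 0.05. The Wald score equals the shrunken change over its error, and both shrink by 1 factor, so the log2 ratio of the group means divided by the Wald score gave the unshrunken error. An estimate from the prior alone differed by at most 2.48% over the 35 genes. Intervals are 95% normal intervals, and the coefficient of variation subtracts counting error and reflects the authors' smoothed dispersion. The derivation was also run on simulated data with means of at least 300 normalized counts and a single small spread, and its outcome is not reported here. Those data did not cover the larger spread or lower means of the adipocyte markers. Genes were placed by symbol in GENCODE M21, and lengths are unions of basic exons. Python 3.11.15 was used.

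The members, lists and role groups were chosen with earlier results of these data known. By the rule for names, all 35 genes are named, with the called or up to 6 lowest-p genes of the wider list, genes needed for the pathway's logic, and up to 4 markers per list by highest mean, apart from those said to be chosen after their values were seen. The derived errors and 2 alternatives were added after the data were seen. Some genes of the wider list are not reported here by name.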

Additional observations from a re-analysis of the deposited data

How the results depend on the processing

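The count of called genes was 0 of 35 at an adjusted p under 0.05 and also with Benjamini-Hochberg adjustment over every row with a p-value. It was 1 (Pmvk) at an adjusted p under 0.1 and 2 (Pmvk and Elovl1) at an unadjusted p under 0.05. Of all tested genes, 1.09% had an adjusted p under 0.05, 1.77% one under 0.1, and 8.47% an unadjusted p under 0.05. The median log2 ratio of 0.050 was positive under all 8 alternatives run, from 0.044 with the shrunken fold change to 0.053 without chromosome 1 genes or without the 4 fatty acid synthesis genes, the last added after the data were seen. In level, the highest gene exceeded the lowest 168-fold in normalized counts and 190-fold per kilobase. The further points concern the median and the signs. Requiring a mean of at least 50 or summing all rows of a symbol could not move it, since every gene has a higher mean and 1 row. Every one of the 35 log2 ratios kept its sign with the shrunken value, a pseudocount of 1 and centring. Shrinkage and a pseudocount cannot change a sign. Centring subtracts only the median of all tested genes, -0.0013, and the ratio nearest to 0 was -0.0045 (Insig2), so these signs are no check. Leaving out replicates in turn was not run, since the table holds no library values. No paired analysis was possible because the columns are group means and the labels carry no replicate numbers. Depth per library is unknown.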

Other observations

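Other lipid-handling cells of the lung gave the following values, beside 1.09% of all tested genes called and 8.47% at an unadjusted p under 0.05 (DESeq2). Of 8 alveolar macrophage markers 6 were higher and 2 lower in knockout, with 0 called in the authors' deposited table (DESeq2) and 2 at an unadjusted p under 0.05, and their median log2 ratio was 0.080. These 2 were named after their values were seen. Marco, a scavenger receptor, had means of 498 and 673 normalized counts in the authors' deposited table (adjusted p = 0.360), and Krt79 of 1127 and 968 (adjusted p = 0.372). Of 4 lipofibroblast genes 3 were higher and 1 lower, with a median log2 ratio of 0.076, 0 called and 0 at an unadjusted p under 0.05. Plin2, which coats lipid droplets, had means of 4178 and 4538 normalized counts in the authors' deposited table (unadjusted p = 0.133).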
